A study of Mus musculus with 6 samples.

Results

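The carboxypeptidases of the Cpxm and Cpe family are 7 genes, *Cpxm1*, *Cpxm2*, *Aebp1*, *Cpe*, *Cpz*, *Cpd* and *Cpm*, found in the deposited table by their gene symbols among 19446 features. All 7 had a row, and all 7 passed the filter of at least 10 reads in at least 2 libraries that left 15948 genes to test. The study cultured cardiac fibroblasts (CFs), the cells that make most of the heart's extracellular matrix (ECM), from 5-week-old mice and sequenced their polyadenylated RNA in 2 genotypes with 3 libraries each. Wild-type (WT) cells were compared with CharmeKO cells, in which a polyadenylation signal inserted into the *Charme* locus stops the transcription of this long non-coding RNA of heart and skeletal muscle. Both genotypes are described by the study as C57BL/6 J mice with no treatment named for these samples, and the cells had grown out of pieces of atrial tissue pooled from littermates, on fibronectin in medium with serum, so a library stands for a culture and not for an animal. The comparison asked which genes differ in cultured CFs when *Charme* is lost. The 7 genes were chosen by family, with their CharmeKO minus WT log2 differences in these same libraries already known, so the genotype values below describe the genes and are not independent evidence of a direction.

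M14 carboxypeptidases of this family cut single basic residues from the C-terminal end of peptides. CPE does so in secretory granules, where it finishes peptide hormones after prohormone convertases have cut their precursors, and CPD does so in the trans-Golgi network. CPM is anchored at the cell surface, and CPZ is secreted into the matrix and carries a cysteine-rich domain like that of the Wnt receptors of the Frizzled family. AEBP1 (also called ACLP), CPXM1 and CPXM2 keep the carboxypeptidase fold next to a discoidin domain but lack residues needed for cleavage. AEBP1 is a collagen-binding protein of the matrix, and CPXM1 also binds collagen.

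The libraries held 38330019 to 46797446 recovered reads assigned to genes, so a count of 0 would allow up to 3 reads, or 0.0641 to 0.0783 CPM (counts scaled to a common library total), for counting error only. Markers of CFs were checked first. All 10 fibroblast markers were measured, with a summed level of 1092800 to 2208100 normalised reads per library. The feature taken as the added *Charme* entry, the 1 feature without an Ensembl ID, had 5 to 15 reads in WT and 0 to 6 in CharmeKO. Libraries with the same replicate number resembled each other for numbers 1 and 2, and less clearly for number 3. Correlated across genes, CharmeKO 3 was as close to WT 2 (r = 0.222) as to WT 3 (r = 0.217). The labels do not say what same-numbered libraries share. Values are therefore also compared within numbers, between WT and CharmeKO libraries of 1 number, called a pair.

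The levels of the 7 genes were compared per length, as RPKM, recovered reads scaled to exon length in kilobases and to the library total. *Aebp1* (ENSMUSG00000020473, chromosome 11, 5861947 to 5872088, plus strand, GRCm38) was the highest on average at 663, and 99.8% of the tested genes with a known length lay below it. It was followed by *Cpe* (ENSMUSG00000037852, chromosome 8, 64592542 to 64693054, minus strand) at 419, which put it at rank 63 from the top. *Cpxm1* (ENSMUSG00000027408, chromosome 2, 130390775 to 130397574, minus strand) averaged 147 RPKM, and *Cpd* (ENSMUSG00000020841, chromosome 11, 76778424 to 76847018, minus strand) 35.2. *Cpz* (ENSMUSG00000036596, chromosome 5, 35502218 to 35525698, minus strand) averaged 16.2. The lowest were *Cpxm2* (ENSMUSG00000030862, chromosome 7, 132032687 to 132154739, minus strand) at 1.35 and *Cpm* (ENSMUSG00000020183, chromosome 10, 117629500 to 117687352, plus strand) at 0.0887. A collagen-binding member without cleaving activity and the granule enzyme thus led the family in these cells.

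Several neighbours in this order were not separated by the spread over the libraries. *Aebp1* was at 383 to 1270 RPKM and *Cpe* at 270 to 543, and *Cpe* was the higher in WT 3 (455 against 383). *Cpxm1* (41.7 to 394 RPKM) was above *Cpd* (21.9 to 46.9) in 5 of the 6 libraries and below it in WT 1, at 41.7 against 46.9. *Cpz* ranged from 1.12 to 54.0 RPKM and was above *Cpd* in WT 2 and CharmeKO 2 but far below it in WT 1, at 1.12 against 46.9. *Cpxm2* (0.113 to 5.00) and *Cpm* (0.0107 to 0.223) stayed at the bottom in all 6 libraries, and were close to each other in WT 2, at 0.113 and 0.105 RPKM. Of the family's summed level per length, *Aebp1* held 41.9% to 56.7%, *Cpe* 21.6% to 49.7% and *Cpxm1* 5.08% to 17.6%.

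**Figure D1:**
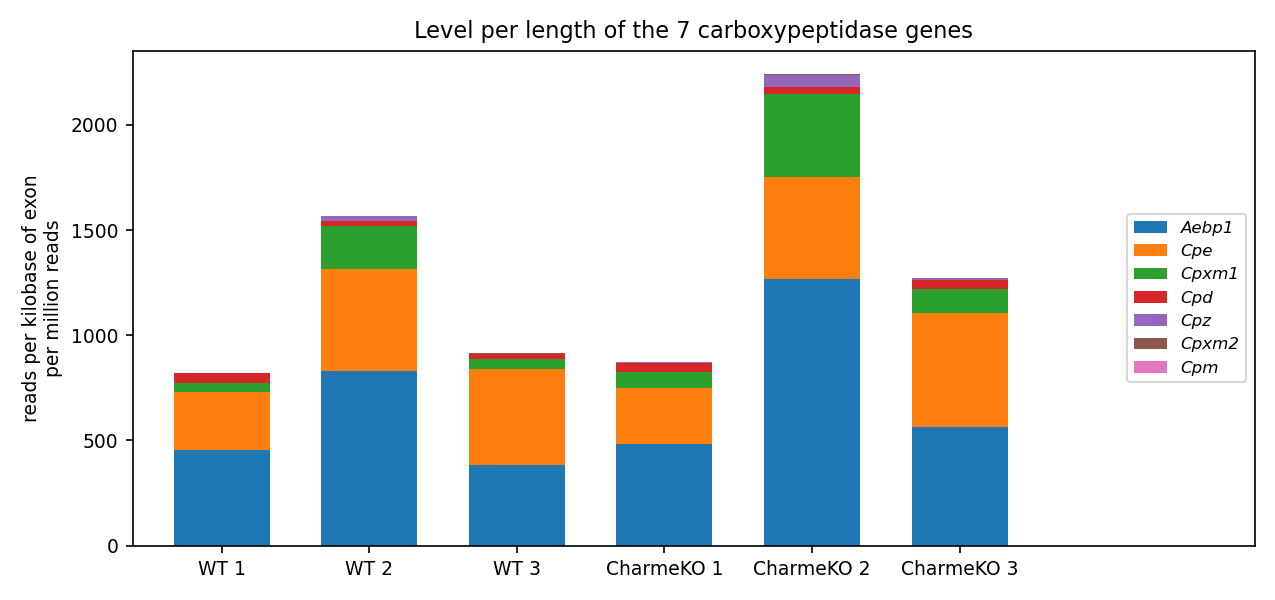
Stacked bars of the level per length, in RPKM, of the 7 genes in each of the 6 libraries (1 culture each, no error bars). The total was 821 in WT 1 and 2240 in CharmeKO 2, and *Aebp1* and *Cpe* make up most of every bar, while *Cpxm2* and *Cpm* are too low to be seen.

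The matrix-binding members without cleaving activity were described first. *Cpxm1* had 4310.5, 20516 and 4880 normalised reads in WT 1, 2 and 3 and 7621, 37535 and 11602 in CharmeKO 1, 2 and 3. The groups overlapped, since WT 2 was above CharmeKO 1 and 3, but within every number the CharmeKO library was the higher, by 1.77-fold, 1.83-fold and 2.38-fold in pairs 1, 2 and 3. The log2 difference between CharmeKO and WT was 0.98 (SE 0.792) in limma on log2(value + 1), and its SE fell to 0.125 when the replicate number entered the fit as a block. Both libraries numbered 2 were far above the other four.

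*Aebp1* had 78222, 138017 and 65728 normalised reads in WT 1, 2 and 3 and 83954, 201744 and 92833 in CharmeKO 1, 2 and 3. Again both libraries numbered 2 were the highest, and the groups overlapped. CharmeKO was above WT within each number, by only 1.07-fold in pair 1, against 1.46-fold and 1.41-fold in pairs 2 and 3. The log2 difference was 0.38 (SE 0.490; 0.200 with the replicate block). It was -0.015 without CharmeKO 2, a fit that kept WT 2, the highest WT library. With both libraries numbered 2 left out of DESeq2 with the block, it was 0.31.

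*Cpxm2*, whose protein has the same domain layout as CPXM1, had 115, 21.4 and 134 normalised reads in WT 1, 2 and 3 and 156, 905 and 175 in CharmeKO 1, 2 and 3. It was the member of the family whose groups did not overlap, with every CharmeKO library above every WT library. Thus 1 of the 7 had groups apart, against 4.11% of all tested genes in either direction and 2.14% with CharmeKO higher. The log2 difference of 2.05 (SE 0.948) was set mainly by number 2, where the lowest WT library met the highest CharmeKO library, a ratio of 42.4. The ratio was 1.35 in pair 1 and 1.30 in pair 3. With DESeq2 and the block, the log2 difference was 1.72, and 0.41 once pair 2 was left out. The block did not reduce the SE of *Cpxm2* (1.12), in contrast to that of *Cpxm1*, since the libraries numbered 2 lay on opposite sides. An antisense transcript, *Gm15677*, shares 351 exonic bases with *Cpxm2* on the other strand, and the reads were counted by strand.

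The enzymes of the secretory pathway came next. *Cpe* had 30721, 51636 and 50174 normalised reads in WT 1, 2 and 3 and 30298, 49520 and 57614 in CharmeKO 1, 2 and 3. Its levels followed the number closely, with both libraries numbered 1 low and the other four high. The log2 difference was 0.040 (SE 0.356), with a 95% interval of -0.81 to 0.89 without the block and of -0.33 to 0.41 with it. Differences of *Cpe* within these bounds could not be told from 0. Its sign was negative without WT 1 (-0.20), CharmeKO 2 (-0.042) or CharmeKO 3 (-0.15).

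*Cpd* had 16627.5, 7476 and 9308 normalised reads in WT 1, 2 and 3 and 15471, 10522 and 13780.2 in CharmeKO 1, 2 and 3. Here the libraries numbered 1 were the highest and those numbered 2 the lowest of their genotype, the reverse of *Aebp1* and *Cpxm1* for number 2. *Cpd* was higher in CharmeKO in pairs 2 and 3 (1.41-fold and 1.48-fold) and slightly lower in pair 1 (a ratio of 0.930). The log2 difference was 0.32 (SE 0.332), and with single libraries left out it ranged from 0.073 without WT 2 to 0.65 without WT 1.

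The secreted enzyme *Cpz* had the widest span of the family, 44.3-fold from the lowest to the highest library. It had 107, 2398 and 169 normalised reads in WT 1, 2 and 3 and 306, 4750.5 and 1012 in CharmeKO 1, 2 and 3. As for *Cpxm1*, WT 2 lay above CharmeKO 1 and 3, and CharmeKO was above WT within each number, by 2.85-fold, 1.98-fold and 5.98-fold. The log2 difference was 1.69 (SE 1.42), with an SE of 0.332 under the replicate block. Leaving out WT 2 raised it to 3.07, and leaving out CharmeKO 2 lowered it to 0.66. The same libraries moved *Cpxm1*, to 1.70 and 0.32, and *Cpxm2*, to 1.22 and 1.24.

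The membrane enzyme *Cpm* was close to the limit of what this depth can show. It had 14, 24 and 13 recovered reads in WT 1, 2 and 3 and 22, 53 and 3 in CharmeKO 1, 2 and 3. The CharmeKO libraries were thus both the highest and the lowest. In pair 3 the ratio of CharmeKO to WT was 0.183 with an exact 95% counting interval of 0.0334 to 0.665, whereas it was 1.53 in pair 1 and 2.03 in pair 2. The log2 difference was -0.17 (SE 1.02) and changed sign with the tool and the pseudocount, to 0.49 in edgeR and 0.012 with a pseudocount of 5.

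**Figure D2:**
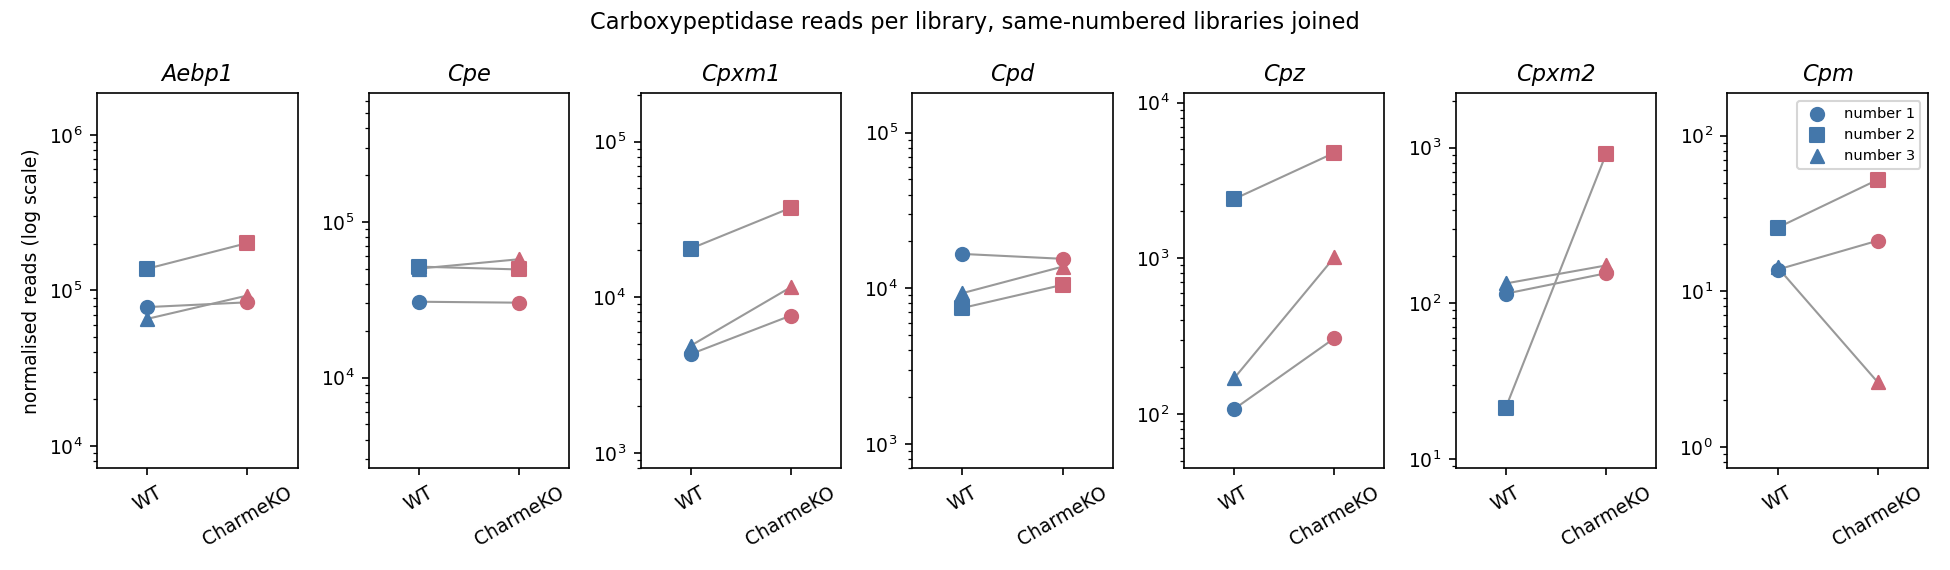
Normalised reads (log axis, each panel spanning the same ratio) of each gene in the 3 WT (blue) and 3 CharmeKO (red) libraries, with same-numbered libraries joined by a line and the symbol giving the number. Lines rise in all 3 pairs for *Aebp1*, *Cpxm1*, *Cpz* and *Cpxm2*, the one steep *Cpxm2* line running from 21.4 to 905 reads in pair 2, while *Cpe* is nearly flat within pairs.

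Over the whole table, limma called 0 of 15948 genes at an adjusted p under 0.05 (0% of the genes tested), with 143 at an unadjusted p under 0.05 (0.897%). edgeR on the recovered reads also called 0, with 158 at an unadjusted p under 0.05 (0.991%). None of the 7 carboxypeptidase genes was called by either (0 of 7), and 0 had an unadjusted limma p under 0.05. DESeq2 without the block called 8 genes (0.0502%), none of them a carboxypeptidase.

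The replicate block changed this for *Cpxm1* and *Cpz*, in DESeq2. With the number as a block, DESeq2 called 64 genes (0.401% of those tested), 26 of them higher in CharmeKO (0.163%) and 38 lower (0.238%). Of the 7, it called 2 as higher and 0 as lower: *Cpxm1*, with a log2 difference of 0.98 (SE 0.164, adjusted p = 4.98e-06), and *Cpz*, with 1.68 (SE 0.352, adjusted p = 0.0012). Both remained past the threshold when any pair was left out, with adjusted p-values of 0.0145, 0.0431 and 0.000185 for *Cpxm1* and 0.0148, 0.0135 and 0.000448 for *Cpz* without pairs 1, 2 and 3. The other 5 genes had adjusted p-values of 0.631 or more in this fit. limma and edgeR with the same block called 0 genes, and the adjusted p of *Cpxm1* and *Cpz* was 0.7997 in limma and 0.839 in edgeR. The unadjusted p in limma with the block was 0.000916 for *Cpxm1* and 0.00532 for *Cpz*. In that fit 2 of the 7 genes and 857 of the 15948 tested genes had an unadjusted p under 0.05. As the genes were picked with these libraries known, the calls describe how steady the within-number difference was and are not a new test of it.

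As a group, 6 of the 7 genes had a log2 difference above 0, against 50.4% of all tested genes. A log2 difference of at least 1 in size was reached by 2 of the 7, *Cpxm2* and *Cpz*, and by 5.04% of all tested genes. The median over the 7 was 0.38, and over all tested genes it was 0.0022. *Cpxm1*, *Cpxm2*, *Aebp1* and *Cpz* were higher in CharmeKO in all 3 pairs (4 of 7), a pattern seen in 16.4% of all tested genes. None was lower in all 3 pairs (0 of 7, against 14% of all tested genes). The 4 genes comprise the 3 members without cleaving activity and the secreted *Cpz*. *Cpe*, *Cpd* and *Cpm* went in different directions in different pairs. This split was read from differences known when the genes were chosen, and it describes them only. It was narrow in pair 1, where the ratio was 1.07 for *Aebp1* and 0.930 for *Cpd*. *Cpm* was above *Aebp1* and *Cpxm2* in pair 1 (1.53 against 1.07 and 1.35). Its fall in pair 3 rested on 3 reads in CharmeKO 3. In pair 3, *Cpd* was above *Aebp1* and *Cpxm2* (1.48 against 1.41 and 1.30). *Cpxm1* and *Cpz* were above *Cpm* in pair 1 and above *Cpd* in pair 3.

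**Figure D3:**
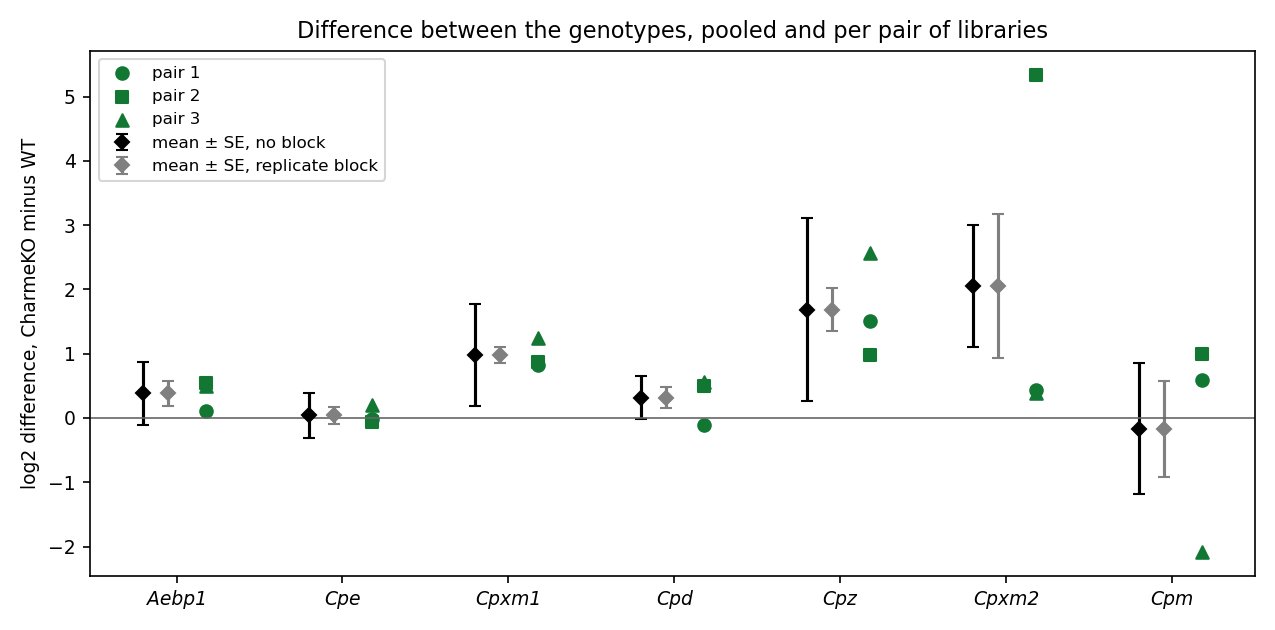
Log2 difference, CharmeKO minus WT, of each gene. Diamonds give the mean over 3 against 3 libraries with its limma SE without (black) and with (grey) the replicate block, and green symbols give the 3 single pairs. For *Cpxm1* the pairs lie between 0.82 and 1.25 and the SE shrinks from 0.792 to 0.125, while for *Cpxm2* pair 2 stands at 5.34, apart from the other two.

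How each gene varied over the 6 libraries was then split into genotype, replicate number and a remainder, as shares of the sum of squares on the log2 scale. For *Cpe* the number held 97.3% and genotype 0.286%. The number held 84.5% for *Aebp1*, 79.8% for *Cpxm1*, 79.3% for *Cpz*, 72.0% for *Cpd* and 66.0% for *Cpm*, where the median of all tested genes was 73.8%. The share of *Cpe* was above the upper quartile of all tested genes (88.7%). That of *Cpxm2*, 0.255%, was below the lower quartile (48.4%), and its remainder was 56.1%. Genotype held 43.6% for *Cpxm2*, 19.5% for *Cpxm1*, 17.95% for *Cpz*, 14.8% for *Cpd* and 12.2% for *Aebp1*, above the median of all tested genes (5.91%), and 0.506% for *Cpm*, below it as for *Cpe*. The remainder for *Cpxm1* was 0.737%, against a median of 13.5%.

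**Figure D4:**
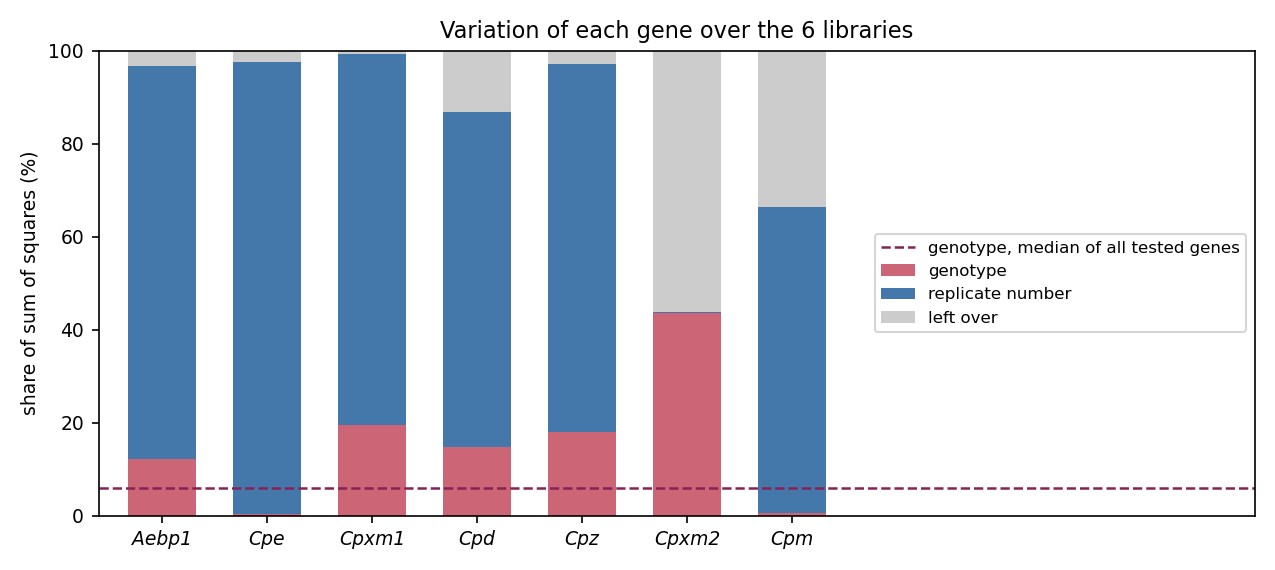
Shares of the sum of squares over the 6 libraries held by genotype, by replicate number and left over, for each gene, with the median genotype share of all tested genes (5.91%) as a dashed line. The replicate number fills most of the bar for all genes but *Cpxm2*.

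The spans over the libraries were wide for part of the family. The log2 range was 5.45 for *Cpz*, 5.34 for *Cpxm2*, 3.88 for *Cpm* and 3.12 for *Cpxm1*. These 4 exceeded the upper quartile of all tested genes (1.99). The range was 1.62 for *Aebp1*, between the median of all tested genes (1.07) and the upper quartile. It was 1.15 for *Cpd* and 0.93 for *Cpe*, near that median.

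Members were also compared with each other by the SD over the 6 libraries of the log2 ratio between their values. This SD is small where genes move together by like amounts and also where both vary little. It is not small where genes move together by unlike amounts, so it is not a measure of correlation. *Cpxm1* and *Aebp1*, for example, varied by unlike amounts (SD 1.22 and 0.60). The smallest were those of *Aebp1* to *Cpe* (SD 0.59), *Cpxm1* to *Aebp1* (0.66), *Cpe* to *Cpd* (0.79) and *Aebp1* to *Cpd* (0.89). None of these was below the SD of the less variable gene alone, which was 0.41 for *Cpe*, 0.45 for *Cpd* and 0.60 for *Aebp1*. The SD for *Cpxm1* to *Cpz* was 0.99, below that of *Cpxm1* (1.22) and of *Cpz* (2.18) alone. The ratio of the relatives *Cpxm1* and *Cpxm2* had an SD of 1.81 and that of *Cpxm2* and *Cpz* an SD of 2.49, the largest of the 21 pairs.

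No RefSeq window was matched for *Cpe*. The sequences before the start of *Cpxm1*, *Aebp1* and *Cpxm2* are shown because these are the 3 members without cleaving activity, each higher in CharmeKO in all 3 pairs. Each is the 250 bases before the RefSeq start (GRCm38.p6), 5′ to 3′ on the strand of the gene, and capitals mark GC boxes, the letters GGGCGG or, on the other strand, CCGCCC. They lie at chr2:130397630-130397879 (minus strand) for *Cpxm1*, chr11:5861616-5861865 (plus strand) for *Aebp1* and chr7:132154742-132154991 (minus strand) for *Cpxm2*, outside annotated exons.
Cpxm1: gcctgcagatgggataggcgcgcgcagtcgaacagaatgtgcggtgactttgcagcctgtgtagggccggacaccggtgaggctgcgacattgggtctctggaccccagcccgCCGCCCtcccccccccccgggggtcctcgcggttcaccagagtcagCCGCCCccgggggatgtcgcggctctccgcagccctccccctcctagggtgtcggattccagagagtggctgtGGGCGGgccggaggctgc
Aebp1: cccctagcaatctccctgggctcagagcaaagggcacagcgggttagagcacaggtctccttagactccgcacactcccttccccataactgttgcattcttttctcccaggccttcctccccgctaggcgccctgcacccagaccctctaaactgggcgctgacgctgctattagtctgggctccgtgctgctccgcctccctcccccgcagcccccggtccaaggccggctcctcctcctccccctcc
Cpxm2: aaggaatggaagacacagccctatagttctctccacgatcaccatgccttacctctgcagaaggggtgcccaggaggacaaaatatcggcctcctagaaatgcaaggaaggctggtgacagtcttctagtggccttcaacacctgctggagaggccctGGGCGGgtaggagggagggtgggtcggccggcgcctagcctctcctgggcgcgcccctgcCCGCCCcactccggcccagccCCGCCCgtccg

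*Cpxm1* and *Cpxm2* hold 3 GC boxes each in this window and *Aebp1* holds 0. Among the members not shown, *Cpm* holds 5, and *Cpz* and *Cpd* hold 1 each. Of 32851 RefSeq windows of this length, 32.7% hold at least 1. The GC content was 70.8% for *Cpxm1*, 64.4% for *Aebp1* and 64% for *Cpxm2* (median of all windows 52.4%). The TATA box letters TATAAA (12.4% of all windows) and the AP-1 letters TGANTCA (6.75%) were in none of the 3 windows shown, on either strand. The letters CAGAC, the core bound by SMAD proteins, occurred 2 times for *Aebp1* and in 42.2% of all windows. The TEAD letters GGAATG occurred 1 time for *Cpxm2* and in 12.6% of all windows. A match of letters is a description and does not show binding.

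Outside the family, the genes with the steadiest log2 ratio to each member were looked up among 11543 tested genes with a mean of at least 100 normalised reads. Genes picked in this way share much of the member's pair differences by selection. Their pair differences below therefore describe the match and are not separate evidence. *Cpxm1* was followed most closely by *Sfrp1*, a secreted Wnt antagonist (SD of the log2 ratio 0.16 over 6 libraries), then by *Mettl7a1* (0.24) and *Mark1* (0.29). *Sfrp1* was also higher in CharmeKO within each number, with log2 differences of 0.53, 0.54 and 1.06. *Cpz* was followed by *Ggt5*, a gamma-glutamyltransferase (0.24), with log2 differences of 1.33, 1.22 and 2.74 in pairs 1, 2 and 3, then by *Rgcc* (0.59) and the complement protease gene *C1ra* (0.68). For *Aebp1* the closest were *Emx2os* (0.12), the chromatin remodeller *Smarca2* (0.12) and *Pcdhgc4* (0.13).

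*Cpe*, whose SD over the libraries (0.41) was near the median of all tested genes (0.42), had close followers. Among them were *Zfc3h1* (0.060) and *Zfp583* (0.064). Those of *Cpd* were *Fah* (0.074), *Arl6ip5* (0.080) and *Cfap298* (0.081). *Cpm* was followed by *Mrap* (0.22), *Zfp783* (0.27) and *Mfap4* (0.27), all of which were lower in CharmeKO 3 than in WT 3 by 1.83 or more on the log2 scale (-1.83, -1.86 and -2.14). This likeness, too, comes from how they were picked. For *Cpxm2* no gene came near, the closest being *Srrm4* (0.79), *Arhgap45* (0.98) and *Tma7-ps* (1.03).

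The other genes of these pathways were taken from lists. Of 17 other M14 carboxypeptidases, 5 could be tested, and limma called 0. The highest was *Agtpbp1*, which trims glutamates from tubulin, with a mean of 1249 normalised reads and a log2 difference of -0.16 (SE 0.233). *Agbl5*, of the same cytosolic branch, was at 0.28 (SE 0.694), *Agbl3* at -0.27 and *Agbl2* at 0.17. *Cpa6*, a secreted carboxypeptidase of the other subfamily, had 329, 234 and 215 normalised reads in WT 1, 2 and 3 and 320.2, 319.5 and 43.5 in CharmeKO 1, 2 and 3. Its CharmeKO 3 value was thus the lowest, as for *Cpm*.

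Of 18 genes of prohormone processing, which act before or after CPE and CPD, 12 were tested and limma called 0, with a median log2 difference of 0.077. The most abundant was *Ctsl*, a lysosomal protease also found in secretory vesicles, at 36858 normalised reads on average and higher in CharmeKO in all 3 pairs (0.25, 0.50 and 0.24 on the log2 scale). *Pam*, which amidates peptides after CPE has acted, changed by 0.14 (SE 0.186), *Mbtps1* by 0.15 (SE 0.192), the convertase *Furin* by -0.13 (SE 0.278) and *Rnpep* by -0.12 (SE 0.148). In this list 1 gene was higher and 2 were lower in all 3 pairs, where 16.4% and 14% of all genes were.

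Among 27 peptide and growth factor precursors, 14 were tested and limma called 0, with a median of 0.27 and with 3 genes higher and 1 lower in all 3 pairs. Of all tested genes, 16.4% were higher and 14% lower in all 3 pairs. *Adm* (adrenomedullin) changed by 0.41 (SE 0.467), *Igf1* by -0.28 (SE 0.458) and *Bdnf* by -0.27 (SE 0.551). *Igf2* had 22.7, 85.4 and 99.97 normalised reads in WT 1, 2 and 3 and 32.7, 37789 and 220.0 in CharmeKO 1, 2 and 3. CharmeKO 2, the library highest in *Cpxm1*, *Cpxm2*, *Aebp1*, *Cpz* and *Cpm*, thus stood apart in *Igf2* as well.

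Of 25 collagen and matrix partners of AEBP1, all 25 were tested and limma called 0, with a median of -0.10. In all 3 pairs, 3 genes were higher and 5 lower, where 16.4% and 14% of all tested genes were. *Col1a1*, the most abundant, changed by 0.16 (SE 0.655), *Thbs1* by -0.30 (SE 0.667), *Fn1* by -0.64 (SE 0.586), *Col1a2* by 0.25 (SE 0.690) and *Col3a1* by 0.12 (SE 0.627). DESeq2 with the block called *Eln*, at -1.81 (adjusted p = 0.0011), lower in all 3 pairs, in the opposite direction to *Cpxm1* and *Cpz*. It called 0 genes of the other 3 lists.

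Markers of other cell types moved with the libraries too. Of 10 adipocyte markers, 4 were measured (*Fabp4*, *Lpl*, *Pparg* and *Cebpa*), and the defining genes *Adipoq*, *Plin1* and *Cidec* were not among the genes analysed here. DESeq2 with the block called *Fabp4* as higher in CharmeKO (log2 difference 2.19, adjusted p = 0.0481). Their summed level was 2309, 13693 and 3608 normalised reads in WT 1, 2 and 3 and 3046, 23854 and 5323 in CharmeKO 1, 2 and 3. As for *Cpxm1*, *Aebp1* and *Cpz*, this sum was highest in the libraries numbered 2 and higher in CharmeKO within every pair. Most of it in the libraries numbered 2 was *Lpl* (12410 and 21973 in WT 2 and CharmeKO 2). The single markers did not all follow the sum, and 1 of the 4 was higher in CharmeKO in all 3 pairs (16.4% of all tested genes were). *Pparg* and *Cebpa* were lower in CharmeKO 2 (146 and 320) than in WT 2 (450 and 622). *Lpl* was lower in CharmeKO 3 (2514) than in WT 3 (2841). All 10 smooth muscle and pericyte markers were measured, with a sum of 58700 to 257806 in WT and 33878 to 156556 in CharmeKO. This sum was lowest in both libraries numbered 2 within their genotype, opposite to *Cpxm1*, but the single markers were mixed. *Myh11*, *Acta2*, *Tagln* and *Cnn1* were also lowest there within their genotype. *Rgs5* (997 and 201 in WT 2 and CharmeKO 2), *Notch3* (4166 and 3055) and *Kcnj8* (66.2 and 8.85) were instead highest there. Of the 10 markers, 6 were lower in CharmeKO in all 3 pairs, where 14% of all tested genes were. The median log2 difference over the list was -1.63. DESeq2 with the block called 1 marker of this list, *Myh11*, as lower (-1.93, adjusted p = 0.000642). All 10 macrophage markers were measured, with a sum of 1934 to 8152 in WT and 1024 to 17539 in CharmeKO. This sum was lowest in CharmeKO 3, as for *Cpm*, with *Ptprc* and *Itgam* at 0 reads there, while *Fcgr1* was at 0 in WT 3. Not all single markers followed the sum. *Cd14* was at 300 in CharmeKO 3 against 102 in WT 1 and 235 in WT 3. *Csf1r* was at 330 in CharmeKO 3 against 294 in WT 2. The part of these cell types in the carboxypeptidase values was not tested, and in bulk RNA fewer cells of a type cannot be told apart from less RNA per cell.

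The remaining marker lists did not follow *Cpxm1*, *Aebp1* and *Cpz* with their highest level in both libraries numbered 2. The summed level was 5062 to 14607 in WT and 6781 to 12685 in CharmeKO for 7 measured endothelial markers, and 4893 to 25384 and 5718 to 27680 for 9 mesothelial ones. It was 3856 to 7508 and 2653 to 4423 for 10 Schwann cell markers, with *Sox10* and *Foxd3* at 0 reads in at least 1 library, and 225 to 783 and 233 to 1047 for 4 cardiomyocyte markers.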

How the data were processed

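RNA-seq of cultured CFs was analysed in 6 libraries, 3 per genotype, grouped by sample title. The authors aligned with STAR and counted reads by strand against Ensembl genes plus *Charme*, then filtered lowly covered genes and scaled with DESeq2 (versions not given in the sources used here). What the authors deposited is a signal of normalised reads, every count of a library carrying 1 scaling factor. The authors' notes name GRCm39, whereas their Ensembl release is on GRCm38. Of 19445 Ensembl IDs, 99.7% matched GENCODE M21 (GRCm38), which gave coordinates and exon lengths.

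Dividing each library by its smallest positive value returned whole reads for 100% of 116676 values (tolerance 1e-06). log2(value + 1) was fitted in limma with a trended prior and genotype as the only term, for genes reaching 10 reads in 2 or more libraries. p-values were two-sided and Benjamini-Hochberg adjusted (threshold 0.05), and this scale understates fold changes of low genes. edgeR's quasi-likelihood test on the recovered reads called 0 genes and DESeq2 without a block 8. R 4.3.3, limma 3.58.1, edgeR 4.0.16, DESeq2 1.42.0 and Python 3.11.15 were used. The fits were run on simulated reads only to check the size of log2 differences without a replicate effect. No limit was set there on false calls, so the simulation does not vouch for the calls of blocked DESeq2. p-values measure the spread between cultures, which the labels do not tie to single animals.

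The labels number the libraries 1 to 3 in both genotypes. Across genes, which are not independent, the deviations from the genotype mean correlated at r = 0.762, 0.514 and 0.217 between libraries sharing number 1, 2 and 3, and at -0.643 to 0.222 between other numbers. Every same-number value exceeded 0.1, so a replicate block was used as the paired alternative. The value for number 3 did not exceed that of WT 2 with CharmeKO 3 (0.222), so the matching is least certain for pair 3.

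The 7 genes and the lists were chosen with earlier results of these data known. Named were all 7, the 3 genes with the steadiest log2 ratio to each, up to 5 of the most abundant genes of each list and any list gene called. Marker lists are given as sums, and some single markers were named after their values were seen. These were *Lpl*, *Fabp4*, *Pparg*, *Cebpa*, *Myh11*, *Acta2*, *Tagln*, *Cnn1*, *Rgs5*, *Notch3*, *Kcnj8*, *Ptprc*, *Itgam*, *Fcgr1*, *Cd14*, *Csf1r*, *Sox10* and *Foxd3*. Some genes that this rule names are not reported here.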

Additional observations from a re-analysis of the deposited data

How the results depend on the processing

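The number of genes called was 0 in limma, 8 with the DESeq2 Wald test, 64 with DESeq2 and the replicate block, and 0 in the other alternatives that kept all libraries (edgeR, limma with the block, other pseudocounts, filters and scalings). It ranged from 0 to 151 in fits that left out a library or, in blocked DESeq2 (chosen after seeing the data), a pair. The number of the 7 genes called was 2 with DESeq2 and the replicate block, 0 in the others, and 0 to 2 with a library or pair left out. The block changed no other call of the 7 genes. *Cpxm1*, *Cpxm2*, *Cpz* and *Cpd* kept their direction throughout, with log2 differences of 0.32 to 1.70, 0.41 to 2.90, 0.66 to 3.07 and 0.073 to 0.65 when libraries or pairs were left out. *Aebp1* ranged from -0.015 to 0.70 and *Cpe* from -0.20 to 0.31, with -0.042 without CharmeKO 2, -0.15 without CharmeKO 3 and -0.048 in blocked DESeq2 without pair 3. *Cpm* (-0.17) was at 0.49 with edgeR (either scaling) and DESeq2, 0.012 with a pseudocount of 5 and 0.011 with edgeR and the block. It ranged from -1.02 to 0.92 with libraries left out (0.11 without WT 2, 0.92 without CharmeKO 3, and 0.82 in blocked DESeq2 without pair 3), and could not be fitted with at least 10 reads required in all 6 libraries. *Cpm* had the fewest reads of the 7 genes, 3 to 53 per library. The cause of the changes in sign was not tested.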
